A study of Mus musculus with 61 samples.

Results

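The genes described here are 9 genes that mature beta cells normally keep silent: Ldha, Slc16a1, Hk1, Hk2, Igfbp4, Oat, Smad3, Cxcl12 and Acot7. They are listed by name for that property, and the list uses no value measured here, although earlier results of these data were known when it was made. All 9 of them were among the 46078 genes counted, and all 9 passed the filter on low values that left 24004 genes for testing.

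Beta cells release insulin when glucose is burned in their mitochondria. Genes such as Ldha and Slc16a1 are called disallowed because their products would let the cell make lactate from pyruvate or take lactate and pyruvate up from blood, and a hexokinase of high affinity would let it burn glucose even when glucose is low. Most other tissues express these genes, and beta cells turn them off as they mature.

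The cells came from ductal organoids, three-dimensional cultures grown from pancreatic ducts of C57BL/6 mice. They were infected with separate lentiviruses for Ngn3, Pdx1 and MafA, each linked to its own fluorescent protein and switched on by doxycycline for 8 days, and were sorted by colour into pools of 50 cells. Cells positive for Pdx1 (P), MafA (M) or both (PM) without Ngn3 were compared with cells that also carried Ngn3 (NP, NM and NPM). Each of these 6 combinations was taken from cultures given wild-type (WT) Ngn3 and from cultures given the phospho-mutant (6SA), whose sites for cyclin-dependent kinases cannot be phosphorylated. The P, M and PM cells thus came from cultures exposed to the Ngn3 virus but lacked its reporter, all cells carried the doxycycline transactivator, and the amounts of the factors were not equal from cell to cell. Uninfected cells and cells with Ngn3 alone were not analysed here. Each condition had 2 or 3 replicate cultures, of which replicates 1 and 2 were at passage 2 and replicate 3 at passage 5. Cells of different colours were sorted from cultures given all 3 viruses, so same-numbered samples with the same form of Ngn3 may share a culture. P-values measure the spread between cultures in a fit that does not pair such samples, except where a replicate block is named.

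After 3 shallow libraries were left out and repeat pools were summed, 32 samples remained, 17 with and 15 without Ngn3, with 2579583 to 19461008 reads on genes. Levels are given as CPM, the counts of a gene per 1000000 counts of the library, after scaling between libraries. Neurog3 (Ngn3) was at 7.87 to 329 CPM where it was induced and at no more than 0.788 CPM elsewhere. It was at 7.87 to 226 CPM in NP and 24.9 to 212 CPM in NM cells. In NPM cells it was at 14.6 CPM in WT replicate 3 and 163 to 329 CPM in the other samples. Its level was thus not matched between NPM cells and NP or NM cells, and its part in comparisons of them was not tested. Mafa was at 0 to 12.7 CPM where induced, and Pdx1 was at 9.84 to 191 CPM where induced against 3.21 to 30.6 CPM elsewhere, so these factors separated the labels less sharply. The sample with no Mafa count was 6SA PM replicate 3, which had Pdx1 at 14.0 CPM and was kept as a PM sample. The 10 duct markers summed to between 15017 and 60425 CPM without Ngn3 and to between 1988 and 18522 CPM with Ngn3. The 10 endocrine markers summed to at most 8.30 CPM without Ngn3 and to between 517 and 13524 CPM with it. The 12 proliferation genes summed to a median of 402 CPM without Ngn3 and 30.6 CPM with Ngn3, and all 12 were lower over the 6 pairs of conditions. In pools of cells, a smaller share of expressing cells and less RNA per cell cannot be told apart.

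One sample stood apart from the rest of its combination. It was the only NPM sample kept at passage 5, so its difference cannot be told apart from passage. In WT NPM replicate 3, Neurog3 was at 14.6 CPM, Ins1 had no count, duct markers summed to 4013 CPM against 1988 to 2793 CPM in the other 4 NPM samples, and endocrine markers to 1134 CPM against 4995 to 9234 CPM. The calls of the 9 genes in NPM against PM cells, over both cultures, are therefore given with and without that sample. Most other values that rest on NPM cells, among them those of the gene lists, are given with it only. Leaving it out sets NPM cells of passage 2 against PM cells of passages 2 and 5. In WT NM replicate 1 the mesenchymal list summed to 298 CPM, most of it from 2 of its 10 genes, Col1a1 (89.9 CPM) and Col1a2 (188 CPM), while Dcn, Lum and Thy1 had no count. Its part in the results was tested only by leaving the sample out.

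The promoters of 6 genes are shown because these are the members called when Ngn3 was added to Pdx1 and MafA: Ldha, Slc16a1, Hk2, Igfbp4 and Smad3, which were lower, and Acot7, which was higher. Each is the stretch of 250 bases before the RefSeq start of the gene in GRCm38.p6, written along the gene's own strand, with capitals on matches of ACGTG, the core of the hypoxia response element, of CACGTG, an E-box that contains it, and of CAGATG, an E-box of proneural factors. All 9 genes had an entry in the RefSeq table, Ldha and Hk1 with 2 starts each. The stretches lie at chr7:46845554-46845803 on the plus strand (Ldha, first start), chr3:104638414-104638663 on the plus strand (Slc16a1), chr6:82774455-82774704 on the minus strand (Hk2), chr11:99040994-99041243 on the plus strand (Igfbp4), chr9:63757995-63758244 on the minus strand (Smad3) and chr4:152185358-152185607 on the plus strand (Acot7), and no annotated exon covers any of them. Those of Ldha and Acot7 lie inside the longer gene spans of the annotation.
Ldha: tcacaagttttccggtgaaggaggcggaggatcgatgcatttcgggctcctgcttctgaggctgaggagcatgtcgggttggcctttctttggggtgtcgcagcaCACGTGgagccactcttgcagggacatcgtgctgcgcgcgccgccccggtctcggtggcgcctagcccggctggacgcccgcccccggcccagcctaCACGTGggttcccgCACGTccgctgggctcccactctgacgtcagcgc
Slc16a1: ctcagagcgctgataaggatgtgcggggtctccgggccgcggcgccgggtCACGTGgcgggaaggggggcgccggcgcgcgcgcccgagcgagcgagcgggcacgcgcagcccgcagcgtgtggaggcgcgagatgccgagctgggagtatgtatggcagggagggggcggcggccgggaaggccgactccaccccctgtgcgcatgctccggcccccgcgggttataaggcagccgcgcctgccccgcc
Hk2: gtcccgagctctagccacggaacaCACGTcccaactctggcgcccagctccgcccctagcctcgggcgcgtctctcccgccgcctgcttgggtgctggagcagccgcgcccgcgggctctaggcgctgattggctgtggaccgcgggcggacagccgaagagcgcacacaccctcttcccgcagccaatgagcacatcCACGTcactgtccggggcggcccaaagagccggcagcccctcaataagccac
Igfbp4: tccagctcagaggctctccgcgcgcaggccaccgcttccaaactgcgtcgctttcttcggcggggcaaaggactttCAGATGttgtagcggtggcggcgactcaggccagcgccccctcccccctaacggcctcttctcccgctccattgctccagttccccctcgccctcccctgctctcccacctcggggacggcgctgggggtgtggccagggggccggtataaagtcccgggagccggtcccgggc
Smad3: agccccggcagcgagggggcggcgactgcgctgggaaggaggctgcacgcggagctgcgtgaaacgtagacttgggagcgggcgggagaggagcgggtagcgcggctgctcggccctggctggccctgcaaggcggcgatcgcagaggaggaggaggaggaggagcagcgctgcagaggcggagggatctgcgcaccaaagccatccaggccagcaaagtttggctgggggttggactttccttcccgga
Acot7: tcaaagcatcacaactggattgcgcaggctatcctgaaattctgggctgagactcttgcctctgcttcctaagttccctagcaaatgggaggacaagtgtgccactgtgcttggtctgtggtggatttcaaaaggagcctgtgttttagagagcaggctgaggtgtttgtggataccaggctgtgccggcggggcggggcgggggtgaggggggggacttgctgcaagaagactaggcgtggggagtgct

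Searched on both strands, ACGTG was found in the promoters of 3 of the 9 genes (Ldha, Slc16a1 and Hk2) and in 16.6% of 32851 promoter entries of the same length. CACGTG was found in those of Ldha, 145 and 48 bases before the start, and Slc16a1, 200 bases before it, and in 6.02% of all entries. Hk2 had its matches 226 and 52 bases before the start, both on the opposite strand. CAGATG was found only in the promoter of Igfbp4 among the 9, 174 bases before the start, and in 14.4% of all entries. Smad3 and Acot7 had no match to any of these motifs. These are matches of letters, not sites of binding.

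Over all 32 samples, Ldha was the most abundant of the 9 genes when levels were scaled to exon length, with a median of 183 CPM per kilobase. Acot7 (46.2), Igfbp4 (37.4), Oat (32.1) and Smad3 (30.9 CPM per kilobase) followed, and the ranges of these 4 genes overlapped one another. Slc16a1 had a median of 17.5, Hk2 of 9.11 and Hk1 of 2.55 CPM per kilobase, with overlapping ranges. Cxcl12, a chemokine, was the lowest at 0.353 CPM per kilobase.

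**Figure D1:**
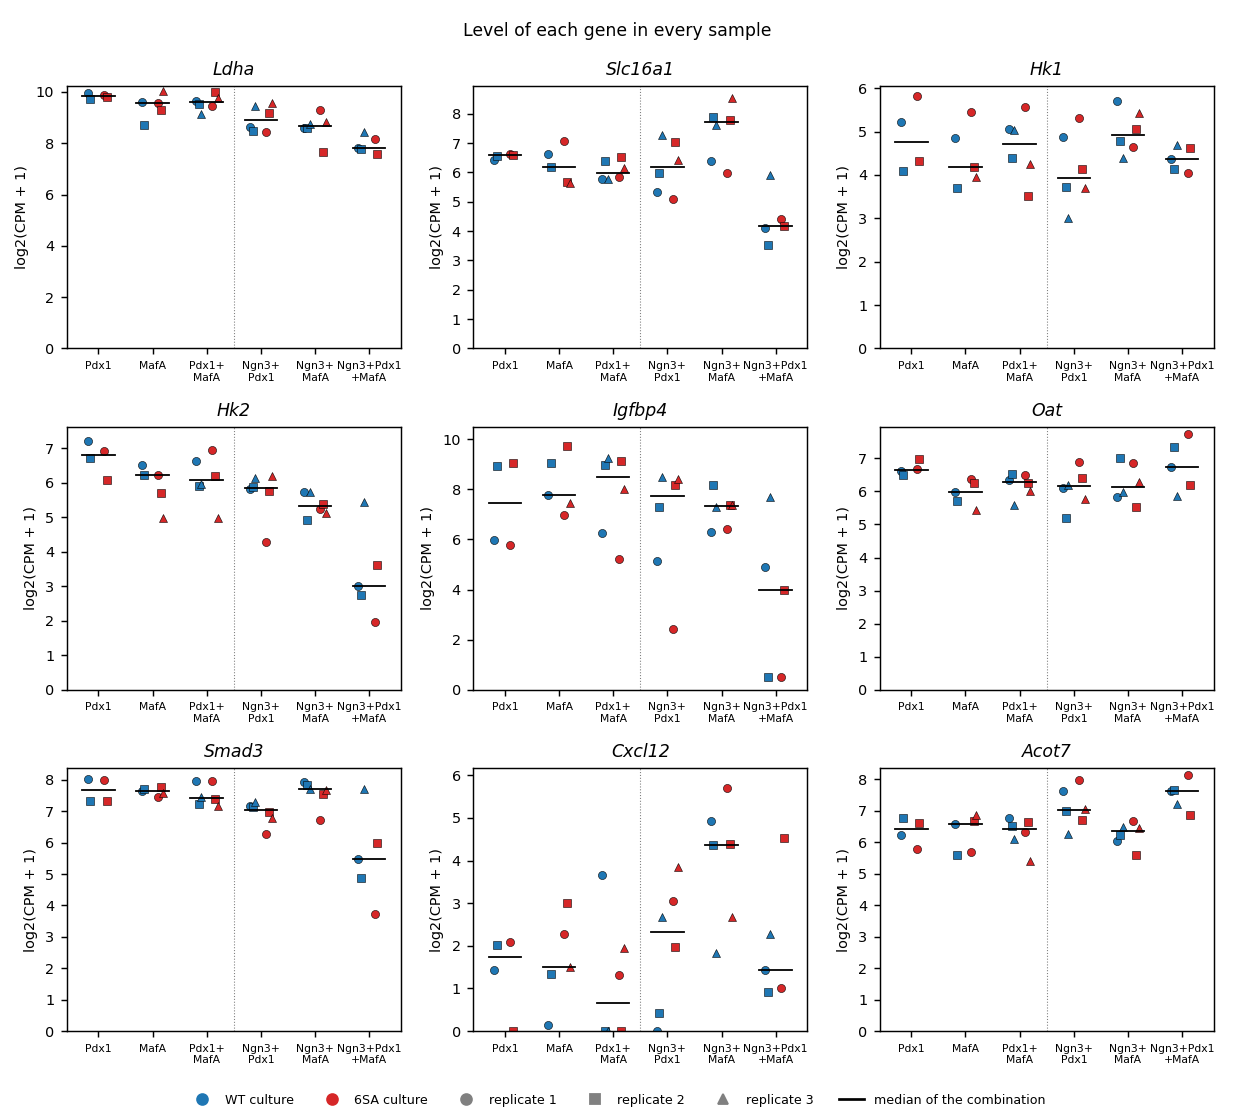
Level of each of the 9 genes in every sample, as log2(CPM + 1), by the factors the cells carried. Each point is 1 sample, coloured by culture and shaped by replicate, the bar is the median of the combination, and the dotted line separates cells without Ngn3 (left) from cells with Ngn3 (right). Ldha in the 5 NPM samples lay between 192 and 343 CPM, below all 6 PM samples, while the Hk2, Slc16a1, Igfbp4 and Smad3 points of WT NPM replicate 3 lay above the other 4.

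The first comparison asked what Ngn3 did to these genes whatever factors it was combined with, as the mean over the 6 pairs of conditions that differed only in Ngn3. By edgeR's quasi-likelihood test, 4 of the 9 genes were lower with Ngn3 (Ldha, Hk2, Smad3 and Igfbp4) and 1 was higher (Acot7), at an adjusted p under 0.05. Of all genes tested, 21.5% were called, 11.1% higher and 10.5% lower. The median log2 change of the 9 genes was -0.20, and that of all genes was 0.07. Slc16a1, Hk1, Oat and Cxcl12 were not called. When Ngn3 was added to Pdx1 and MafA, 6 of the 9 genes were called, 5 lower and 1 higher. In that comparison 17.8% of all genes were called (9.42% higher and 8.40% lower), and the median log2 change was -1.56 for the 9 genes and 0.05 for all genes.

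Lactate dehydrogenase A, encoded by Ldha (chromosome 7, 46841475-46855627, plus strand), turns pyruvate into lactate. In NPM cells Ldha was at 222, 216 and 343 CPM in WT replicates 1, 2 and 3 and at 288 and 192 CPM in 6SA replicates 1 and 2. In PM cells it was at 561 CPM at the lowest, 777 CPM at the median and 1010.0 CPM at the highest. No NPM sample reached the lowest PM sample, and this held for WT NPM replicate 3 as well.

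Ldha fell 3.12-fold in NPM against PM cells (252 ± 62.3 CPM, SD, n = 5, against 784 ± 153 CPM, n = 6; log2 -1.64, SE 0.301, edgeR adjusted p = 0.000338). Without WT NPM replicate 3 the log2 change was -1.77 (adjusted p = 0.000217), and with passage 2 cultures alone it was -1.84 (adjusted p = 0.000914). Without replicate 2 of every condition, which leaves 6SA NPM cells with 1 sample, it was -1.36 and was not called (adjusted p = 0.0971). Over the 6 pairs it fell 2.10-fold (log2 -1.07, SE 0.169, edgeR adjusted p = 2.42e-05) and was lower in 14 of 14 pairs of samples with the same culture and replicate number. In the fit without a replicate block, Ldha was the only one of the 9 genes called in the WT cultures alone (log2 -1.44, SE 0.390, edgeR adjusted p = 0.0297, with 4.86% of all genes called). That call was lost without replicate 1 (adjusted p = 0.218) or replicate 2 (adjusted p = 0.528).

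Where Ngn3 joined a single factor, Ldha passed the threshold with the replicate number as a block but not without it. With Pdx1 it was at a median of 489 CPM in NP cells (346 to 758 CPM, n = 6) and 921 CPM in P cells (845 to 983 CPM, n = 4), and the groups did not overlap (log2 -0.82, SE 0.298, edgeR adjusted p = 0.219). With MafA its median was 408 CPM in NM cells (199 to 632 CPM, n = 6) and 761 CPM in M cells (422 to 1056 CPM, n = 5), and the groups overlapped (log2 -0.76, SE 0.285, adjusted p = 0.145). With the block the log2 changes were -0.96 (adjusted p = 0.0404, with 4.21% of all genes called) and -0.81 (adjusted p = 0.0421, with 8.84% called). The order of the medians from the highest was P, PM, M, NP, NM and NPM, and the ranges of each neighbouring pair in this order overlapped. Over all samples, 28 and 624 reads were counted on Ldha-ps and Ldha-ps2, processed copies of Ldha. Reads that fit both Ldha and a copy were not measured.

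The partner subunit Ldhb, which favours the return from lactate to pyruvate, was lower too. In NPM cells it was at 7.73 to 17.6 CPM, below all PM samples (36.1 to 80.1 CPM), a fall on the log2 scale of 2.14 (SE 0.332, edgeR adjusted p = 4.91e-05). Over the 6 pairs its log2 change was -1.25 (SE 0.182, adjusted p = 8.04e-06). Per kilobase Ldha remained the more abundant subunit gene, with medians of 66.9 and 9.63 CPM per kilobase in NPM cells.

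Monocarboxylate transporter 1, encoded by Slc16a1 (chromosome 3, 104638668-104658462, plus strand), carries lactate and pyruvate across the plasma membrane. Its level was 16.1, 10.4 and 58.8 CPM in WT NPM replicates 1, 2 and 3 and 20.4 and 16.8 CPM in 6SA NPM replicates 1 and 2, against 53.6 to 91.0 CPM (median 62.8 CPM) in PM cells. Only WT NPM replicate 3 reached into the range of the PM samples. Slc16a1 fell 2.94-fold (log2 -1.56, SE 0.483, edgeR adjusted p = 0.025). Without that sample the log2 change was -2.10 (adjusted p = 0.00225), and with 1 pool from each replicate in place of the sum it was -1.44 and not called (adjusted p = 0.0995). Without replicate 2 of every condition it was -1.07 and not called (adjusted p = 0.471).

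In NM cells Slc16a1 was instead high in most samples. Its level was 83.0, 235 and 197 CPM in WT NM replicates 1, 2 and 3 and 62.4, 219 and 374 CPM in those of 6SA, against 49.0 to 132 CPM in M cells. The samples of replicate 1 lay within the range of the M cells and the other 4 above it, and the difference was not called (log2 1.25, SE 0.476, edgeR adjusted p = 0.153). Without replicate 1 of every condition it was called (log2 2.10, adjusted p = 0.00188). NP and P cells did not separate (log2 -0.14, SE 0.484, adjusted p = 1.00).

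Because of this, the level of Slc16a1 in the 3 combinations with Ngn3 spanned from 10.4 to 374 CPM, and it had no shared direction over the 6 pairs (log2 -0.15, SE 0.271, edgeR adjusted p = 0.931, lower in 9 of 14 pairs of samples). Where Pdx1 was added to Ngn3 and MafA, Slc16a1 fell by 3.07 on the log2 scale (SE 0.522, adjusted p = 0.00197), and all 5 NPM samples lay below all 6 NM samples. That comparison called 4 of the 9 genes, and 2.72% of all genes. The difference between the effect of Ngn3 beside both factors and its effect beside MafA alone was -2.81 on the log2 scale (SE 0.678, unadjusted p = 0.000296), which did not pass after adjustment over all genes (adjusted p = 0.149) but did without WT NPM replicate 3 (adjusted p = 0.00775). Pools of 50 cells from the same sample varied in Slc16a1 by an SD of 1.01 on the log2 scale, against 0.891 between replicates of a condition, whereas for Ldha these were 0.392 and 0.366.

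Among 4 other transport genes, 2 were called over the 6 pairs, where 21.5% of all genes were called. Emb, whose product embigin escorts monocarboxylate transporters to the membrane, was at a mean of 363 CPM in NPM cells and 5.06 CPM in PM cells (log2 6.20, SE 0.914, edgeR adjusted p = 2.6e-05). Slc16a7, encoding a transporter of higher affinity, was at 13.6 CPM or less in every sample and rose over the 6 pairs (2.70 against 0.307 CPM, log2 3.51, SE 0.967, adjusted p = 0.00886). Slc16a3, the lactate exporter of glycolytic cells, and Bsg, the other escort protein, were not called over the 6 pairs (log2 -0.72 and -0.10, adjusted p = 0.318 and 0.891).

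Hexokinases trap glucose in the cell by phosphorylating it. Hexokinase 2, encoded by Hk2 (chromosome 6, 82725025-82774454, minus strand), has a high affinity for glucose. It was at 7.05, 5.71 and 42.7 CPM in WT NPM replicates 1, 2 and 3 and at 2.92 and 11.3 CPM in 6SA NPM replicates 1 and 2. PM cells held 30.9 CPM at the lowest, 66.6 CPM at the median and 124 CPM at the highest, so 4 of the 5 NPM samples lay below every PM sample and WT NPM replicate 3 lay above the lowest one.

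Hk2 fell 6.49-fold in NPM against PM cells (13.9 ± 16.4 CPM, SD, n = 5, against 74.2 ± 32.6 CPM, n = 6; log2 -2.70, SE 0.504, edgeR adjusted p = 0.000403). Without WT NPM replicate 3 the log2 change was -3.46 (adjusted p = 5.06e-06). The call also rests on the libraries kept: when the 3 shallow libraries were added, among them the single pool of 6SA NPM replicate 3 with 87 reads of Hk2, or 213 CPM before scaling, the log2 change was -0.98 and was not called (adjusted p = 0.269). Over the 6 pairs the fall was 2.75-fold (log2 -1.46, SE 0.270, adjusted p = 0.00018), lower in 13 of 14 pairs of samples, and it too was lost with all libraries (log2 -0.89, adjusted p = 0.081).

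Beside single factors Hk2 did not pass the threshold (log2 -1.0, adjusted p = 0.389, with Pdx1; log2 -0.68, adjusted p = 0.528, with MafA). It fell where MafA was added to Ngn3 and Pdx1 (log2 -2.24, SE 0.49, edgeR adjusted p = 0.0135) and where Pdx1 was added to Ngn3 and MafA (log2 -1.83, SE 0.483, adjusted p = 0.0379). These comparisons share the NPM samples with each other and with that against PM cells, and both calls were lost with all libraries included (log2 -0.52 and -0.12) and without replicate 2 of every condition (adjusted p = 0.328 and 0.379).

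Hexokinase 1, encoded by Hk1 (chromosome 10, 62268855-62379908, minus strand), is the widely expressed form and was not called. It was at 15.6 to 24.6 CPM in NPM cells and 10.4 to 46.5 CPM in PM cells (log2 -0.41, SE 0.462, edgeR adjusted p = 0.612), and over the 6 pairs its log2 change was -0.20 (SE 0.269, adjusted p = 0.806). The NPM range lay inside the PM range. The exons of Hk1 overlap those of the antisense gene Hk1os over 157 bases, and the library kit does not mark strand, so reads there cannot be told apart.

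Scaled to exon length, the median of Hk2 was 11.2 CPM per kilobase in PM cells and 1.18 CPM per kilobase in NPM cells, whereas that of Hk1 was 3.04 and 2.32 CPM per kilobase. By these medians Hk2 was the more abundant of the pair in PM cells and Hk1 in NPM cells. WT NPM replicate 3 went the other way, with 42.7 CPM of Hk2 against 24.6 CPM of Hk1 before scaling to the longer exons of Hk1. Hkdc1 stayed at 18.0 CPM or less and was not called (log2 0.62 against PM, adjusted p = 0.799), and Hk3 was at 0 in all samples without Ngn3 and at most 0.589 CPM with it.

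**Figure D2:**
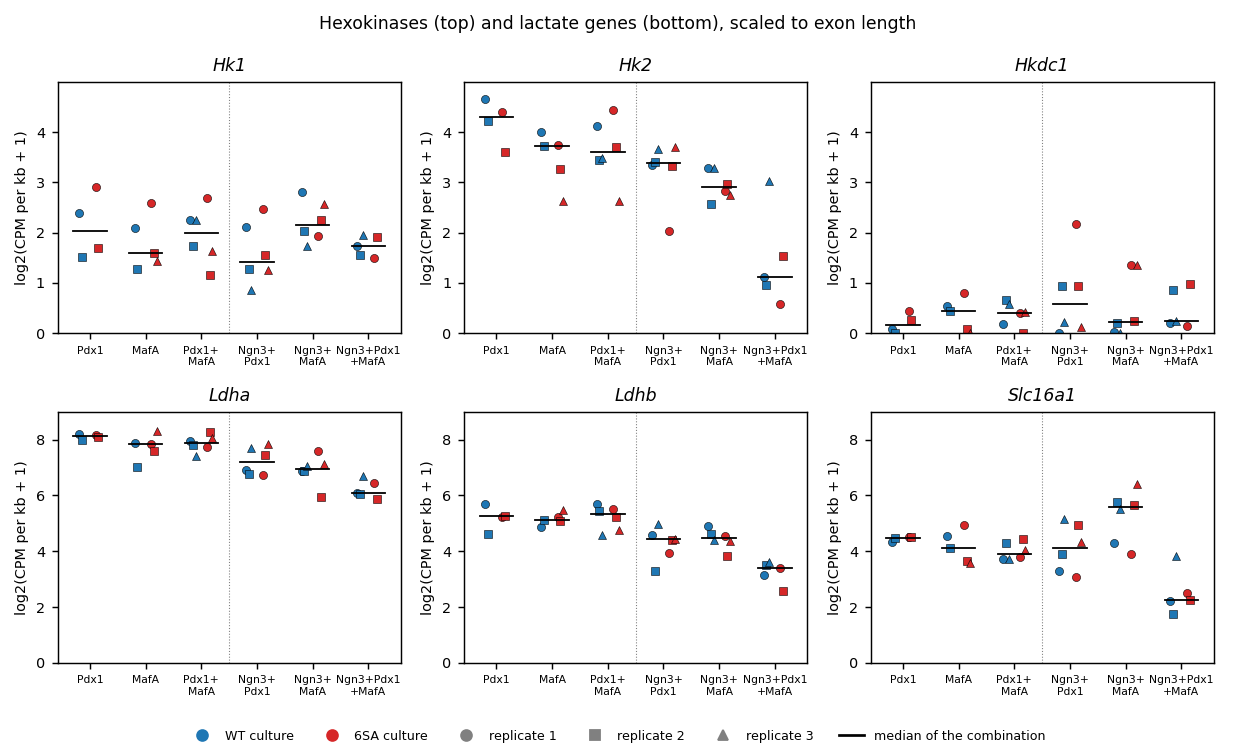
Levels scaled to exon length, as log2(CPM per kilobase + 1), of the hexokinase genes Hk1, Hk2 and Hkdc1 (top) and of Ldha, Ldhb and Slc16a1 (bottom), with 1 point for each sample and a bar for the median of each combination. Hk2 had a median of 1.18 CPM per kilobase in NPM and 11.2 CPM per kilobase in PM cells, and both lactate dehydrogenase genes were lower in NPM cells.

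Insulin-like growth factor binding protein 4, encoded by Igfbp4 (chromosome 11, 99041244-99054392, plus strand), is secreted and holds insulin-like growth factors away from their receptor. It varied most among replicates. In PM cells it was at 75.2, 499 and 617 CPM in WT replicates 1, 2 and 3 and at 36.5, 556 and 255 CPM in those of 6SA, so replicate 1 of both cultures was low. In NPM cells it was at 28.7, 0.439 and 206 CPM in the WT replicates and at 0.407 and 14.9 CPM in 6SA, and 2 of these values rest on 3 and 6 reads.

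The fitted change of Igfbp4 in NPM cells was -3.78 on the log2 scale (SE 1.19, edgeR adjusted p = 0.0265), which rests in part on samples near the limit of 3 reads. Without WT NPM replicate 3 it was -4.98 (adjusted p = 0.00581), and without replicate 2 of every condition -5.01 and not called (adjusted p = 0.0889). Igfbp4 fell 3.66-fold over the 6 pairs (log2 -1.87, SE 0.603, adjusted p = 0.0248) and was lower in 14 of 14 pairs of samples. This call was lost with all libraries (adjusted p = 0.0514) and without replicate 2 of every condition (log2 -1.31, adjusted p = 0.317). The SD between pools of a sample was 1.13 on the log2 scale and that between replicates 2.20, the widest of the 9 genes.

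Smad3 (chromosome 9, 63646767-63757994, minus strand) carries the signal of TGF-beta and activin receptors into the nucleus. It was at 43.6, 28.5 and 209.6 CPM in WT NPM replicates 1, 2 and 3 and at 12.2 and 63.1 CPM in 6SA NPM replicates 1 and 2, against 143 to 249.5 CPM (median 171 CPM) in PM cells. WT NPM replicate 3 lay within the PM range and the other 4 samples lay below it. Smad3 fell 3.17-fold (log2 -1.66, SE 0.411, edgeR adjusted p = 0.00519), and by 2.35 on the log2 scale without that sample (adjusted p = 2.3e-05). Without replicate 1 of every condition the change was -0.82 and was not called (adjusted p = 0.204), which left WT NPM replicate 3 as 1 of 3 NPM samples.

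Smad3 fell 1.77-fold over the 6 pairs (log2 -0.82, SE 0.230, edgeR adjusted p = 0.00929) and was lower in 10 of 14 pairs of samples. That call was lost without replicate 1 of every condition (log2 -0.36, adjusted p = 0.473) and with 1 pool from each replicate (adjusted p = 0.0522). Beside Pdx1 all 6 NP samples (76.9 to 156 CPM) lay below all 4 P samples (159 to 259.5 CPM), but the change was not called (log2 -0.76, SE 0.407, adjusted p = 0.468). Beside MafA the level in NM cells (105 to 243 CPM) spanned that in M cells (175 to 219 CPM; log2 -0.05, adjusted p = 1.00). Smad3 was lower where Pdx1 was added to Ngn3 and MafA (log2 -1.70, SE 0.412, adjusted p = 0.0245). Of 13 other settings 10 called this difference, with log2 changes from -2.40 to -1.24 over all of them.

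Cxcl12 (chromosome 6, 117168535-117181367, plus strand) encodes the ligand of the receptors Cxcr4 and Ackr3. It was scarce, with 0 reads in 5 of the 32 samples. Most of its reads were in NM cells, at 29.2, 19.6 and 2.57 CPM in WT replicates 1, 2 and 3 and at 51.3, 19.8 and 5.35 CPM in those of 6SA, against 0.107 to 6.97 CPM in M cells. Of these 6 samples, 4 were above every M sample. The change was not called by edgeR (log2 3.58, SE 1.41, adjusted p = 0.173) but was by DESeq2 (adjusted p = 0.0382).

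In NPM cells Cxcl12 was at 22 CPM in 6SA replicate 2 and at 0.878 to 3.86 CPM in the other 4 samples. Neither the change against PM cells (log2 1.05, SE 1.19, edgeR adjusted p = 0.610) nor that over the 6 pairs (log2 1.86, SE 0.747, adjusted p = 0.0784) was called. Mesenchymal cells are a known source of this chemokine. The sum of mesenchymal markers was 298 CPM in WT NM replicate 1 and 13.3 CPM in 6SA NM replicate 1, where Cxcl12 was highest. In 6SA M replicate 3 the sum was 14.8 CPM with Cxcl12 at 1.85 CPM. In WT and 6SA NM replicate 2, Cxcl12 was at 19.6 and 19.8 CPM with sums of 6.91 CPM or less. The part of such cells in its level was not tested. Without WT NM replicate 1 the change over the 6 pairs was 1.76 (adjusted p = 0.12).

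Ornithine aminotransferase, a mitochondrial enzyme that links ornithine to glutamate and proline, is encoded by Oat (chromosome 7, 132557478-132576398, minus strand). It was at 106, 162 and 57.2 CPM in WT NPM replicates 1, 2 and 3 and at 214 and 72.8 CPM in 6SA NPM replicates 1 and 2, against 47.1 to 91.0 CPM (median 77.9 CPM) in PM cells. Of these, 3 lay above and 2 within the PM range, and Oat was not called (log2 0.75, SE 0.336, edgeR adjusted p = 0.125; without WT NPM replicate 3 log2 0.90, adjusted p = 0.0599). Over the 6 pairs the log2 change was 0.20 (SE 0.199, adjusted p = 0.641).

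Acot7 (chromosome 4, 152178134-152271855, plus strand) encodes an acyl-CoA thioesterase, which releases free fatty acids from long-chain acyl-CoA and is abundant in neurons. Among the 9 genes it was the only one called higher. It was at 198, 199.7 and 147 CPM in WT NPM replicates 1, 2 and 3 and at 279 and 117 CPM in 6SA NPM replicates 1 and 2, whereas PM cells held 41.3 to 109 CPM (median 85.5 CPM). All 5 NPM samples lay above all 6 PM samples.

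Acot7 rose 2.33-fold in NPM against PM cells (188 ± 61.9 CPM, SD, n = 5, against 81.6 ± 24.4 CPM, n = 6; log2 1.22, SE 0.333, edgeR adjusted p = 0.0109), and by 1.29 on the log2 scale without WT NPM replicate 3 (adjusted p = 0.0095). It was not called without replicate 1 (log2 0.98, adjusted p = 0.0698), replicate 2 (log2 1.58, adjusted p = 0.0661) or replicate 3 (log2 1.06, adjusted p = 0.0648) of every condition, the last of which leaves passage 2 alone. Over the 6 pairs it rose 1.59-fold (log2 0.67, SE 0.199, adjusted p = 0.0146) and was higher in 11 of 14 pairs of samples, but it was not called without replicate 1 of every condition (log2 0.39, adjusted p = 0.370). Its level with Pdx1 was 75.8 to 253 CPM in NP cells against 53.8 to 108 CPM in P cells (log2 0.83, SE 0.361, adjusted p = 0.340), and with MafA 47.2 to 102 CPM in NM cells against 47.5 to 114 CPM in M cells (log2 -0.04, SE 0.335, adjusted p = 1.00). When Pdx1 was added to Ngn3 and MafA, all NPM samples lay above all NM samples (log2 1.30, SE 0.333, adjusted p = 0.0333), but without WT NM replicate 1 that call was lost (adjusted p = 0.0625), as was that of Hk2 (adjusted p = 0.0569).

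**Figure D3:**
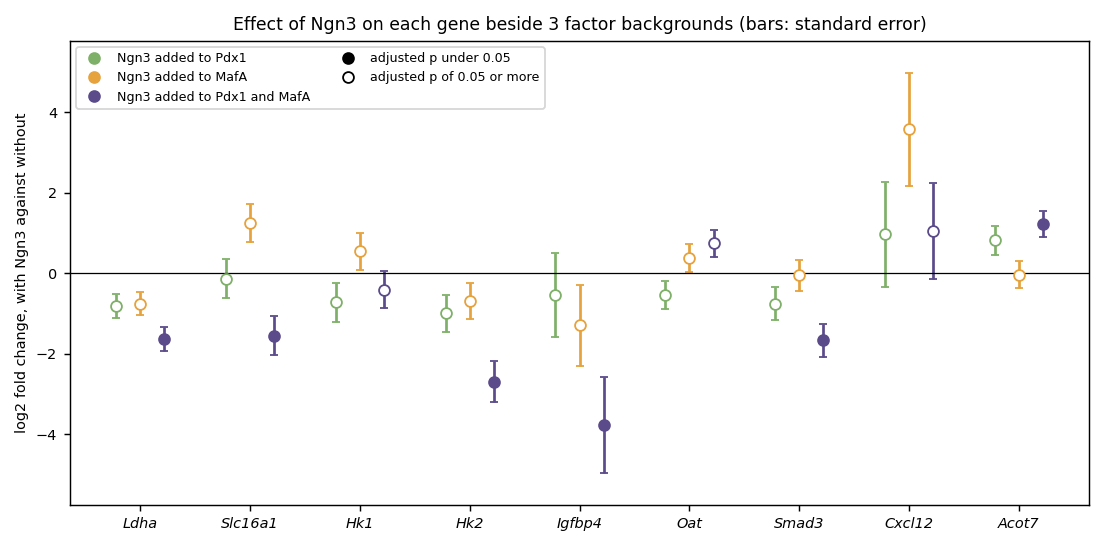
Log2 change of each of the 9 genes when Ngn3 was added to Pdx1, to MafA or to both, over WT and 6SA cultures. Points are edgeR estimates, bars are standard errors and filled points have an adjusted p under 0.05. Filled points appear only for the addition to both factors, from -3.78 for Igfbp4 to 1.22 for Acot7.

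Where Ngn3 was added to a single factor, edgeR called 0 of the 9 genes, or 1 with the replicate block (Ldha in both comparisons). With Pdx1, 3 of them had an unadjusted p under 0.05 (Ldha, Hk2 and Acot7), as did 2899 of the 24004 genes tested. DESeq2 called 0 of the 9 and 3.80% of all genes, where edgeR called 1.49% of all genes. With MafA, 3 had an unadjusted p under 0.05 (Ldha, Slc16a1 and Cxcl12), as did 3798 of the 24004 genes tested. DESeq2 called 1 of the 9 and 8.03% of all genes, where edgeR called 4.67% of all genes. That a gene passed in NPM cells and not beside a single factor does not show that the effects differ, and the tests of that difference called 0 of the 9 genes against Pdx1 (0.0958% of all genes) and 0 against MafA (0.050% of all genes). Unadjusted, 4 and 5 of them had a p under 0.05, as did 1710 and 2244 of all genes. DESeq2 called 0 and 1 of the 9, with 0.933% and 1.45% of all genes called. Without WT NPM replicate 3, edgeR called 1 and 3, where 1.01% and 1.25% of all genes were called.

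Addition of MafA to Ngn3 and Pdx1 called 2 of the 9 genes, both lower, where 1.88% of all genes were called and 1.35% were called lower. Besides Hk2 this was Slc16a1 (log2 -1.86, SE 0.490, edgeR adjusted p = 0.0416). Ldha lay lower in all 5 NPM than in all 6 NP samples but did not pass (log2 -1.06, SE 0.294, adjusted p = 0.0589). Without WT NPM replicate 3, 5 of the 9 genes were called in this comparison (4.47% of all genes) and 5 when Pdx1 was added to Ngn3 and MafA (6.74% of all genes). Without replicate 2 of every condition, 0 of the 9 genes were called in either (0.0667% and 0% of all genes).

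The study also asked whether Ngn3 that cannot be phosphorylated acts differently. Over NP, NM and NPM cells, edgeR called 0 of the 9 genes and 0 of all genes (0%) between 6SA and WT Ngn3. DESeq2 called 0 of the 9 and 0.108% of all genes. By edgeR, 1 of the 9 had an unadjusted p under 0.05, as did 1421 of all genes. That gene was Smad3 (110 ± 62.8 CPM, n = 8, against 156 ± 77.1 CPM, n = 9; log2 -0.76, SE 0.318, edgeR adjusted p = 0.800). Ldha differed by 0.07 (SE 0.230, adjusted p = 1.00) and Hk2 by -0.66 (SE 0.370, adjusted p = 0.876).

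Against their own PM cells, 6SA NPM cells had 3 of the 9 genes called, all lower, where 5.79% of all genes were called and 2.50% were called lower: Hk2 (log2 -3.42, SE 0.789, edgeR adjusted p = 0.00903), Ldha (log2 -1.84, SE 0.458, adjusted p = 0.0149) and Smad3 (log2 -2.31, SE 0.639, adjusted p = 0.0285). In the WT cultures the values were -1.98 (adjusted p = 0.0658) for Hk2 and -1.02 (adjusted p = 0.291) for Smad3, beside the call of Ldha. Without WT NPM replicate 3, 4 of the 9 genes were called in the WT cultures, where 7.09% of all genes were called. In the 6SA cultures, 11 of 14 other settings called Hk2, and its log2 change was -0.028 at the smallest. Of the 3 calls in the 6SA cultures, 0 were made without replicate 2 (adjusted p = 0.144 for Hk2, 0.488 for Ldha and 0.0738 for Smad3), and those of Hk2 (adjusted p = 0.0856) and Smad3 (adjusted p = 0.280) were lost without replicate 1, each of which leaves 1 sample of 6SA NPM cells. The test of whether the effect of Ngn3 differed between its forms called 0 of the 9 genes and 0 of all genes. None of the 9 had an unadjusted p under 0.05, where 647 of all genes did, and DESeq2 called 0 of the 9 and 5 of all genes. In cells without Ngn3 the cultures also differed in 0 of the 9 genes and 0 of all genes. Again none of the 9 had an unadjusted p under 0.05, where 591 of all genes did, and DESeq2 called 0 of the 9 and 8 of all genes. The same held for the 9 genes between P and M cells, where 675 of all genes had an unadjusted p under 0.05. In that comparison edgeR called 0 and DESeq2 26 of all genes.

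Other genes of the same kind were described by lists, to be read beside the 21.5% of all genes called over the 6 pairs and the 17.8% called in NPM against PM cells. Of 15 further disallowed genes tested, 9 were lower over the 6 pairs and 1 was higher, with a median log2 change of -1.37 against 0.07 for all genes. The 1 that rose was Maf, a transcription factor (log2 1.19, edgeR adjusted p = 0.0184). Among them Tgm2, a transglutaminase, fell from a mean of 205 to 20.4 CPM between PM and NPM cells (log2 -3.38, SE 0.591, edgeR adjusted p = 0.000196). Mgst1, a microsomal glutathione transferase, fell from 522 to 115 CPM (log2 -2.35, SE 0.554, adjusted p = 0.00365). Nfib, a transcription factor, fell by 1.58 on the log2 scale (adjusted p = 0.0014), and Parp3, a DNA repair enzyme, fell by 2.64 (adjusted p = 0.0108). In NPM against PM cells 8 of the 15 were lower and 0 higher. Of the 10 duct markers, 7 were lower in the same comparison, and their part in these counts was not tested.

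Of 15 genes of glycolysis, 4 were lower and 1 higher over the 6 pairs (median log2 change -0.27). The glucose transporter gene Slc2a1 was lower in NPM cells (58.9 against 271 CPM, log2 -2.30, SE 0.431, edgeR adjusted p = 0.000422), as were Eno1 (log2 -1.01, adjusted p = 0.00963) and Aldoc (log2 -1.20, adjusted p = 0.0489), an enolase and an aldolase. Pfkl, a phosphofructokinase, was the other (log2 -1.14, adjusted p = 0.0442). The neuronal enolase gene Eno2 was at 7.69 CPM with and 1.67 CPM without Ngn3 (log2 2.13 over the 6 pairs, adjusted p = 0.0213).

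Of 10 genes by which beta cells metabolise glucose, 5 were higher and 2 lower over the 6 pairs, and as many in each direction were called in NPM cells. These included Mpc1, part of the mitochondrial pyruvate carrier (log2 2.18 in NPM cells, SE 0.50, edgeR adjusted p = 0.00279), and G6pc2, the islet glucose-6-phosphatase, at a mean of 35.4 CPM in NPM and 0.00981 CPM in PM cells. Slc25a13, a mitochondrial aspartate-glutamate carrier, was lower (log2 -1.44, adjusted p = 0.0328), as was Pdha1, a subunit of pyruvate dehydrogenase (log2 -1.28, adjusted p = 0.00908).

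Hypoxia targets did not share a direction. Of 11 tested, 2 were higher and 2 lower over the 6 pairs. Car9, a carbonic anhydrase, fell from 183 to 9.08 CPM between PM and NPM cells (log2 -4.32, SE 0.704, edgeR adjusted p = 8.64e-05) and Egln3, a prolyl hydroxylase, by 2.15 on the log2 scale (adjusted p = 0.000898). Ndrg1 rose from 31.1 to 181 CPM (log2 2.60, adjusted p = 0.00168), and Bnip3 rose over the 6 pairs (log2 1.00, adjusted p = 0.0078).

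Around Igfbp4, 2 of the 11 other genes of the insulin-like growth factor axis were higher and 1 lower over the 6 pairs, a share near that of all genes. Pappa2, a protease of binding proteins, was at a mean of 158 CPM in NPM and 0.0565 CPM in PM cells (edgeR adjusted p = 8.96e-05). Igf2 was lower (0.996 against 9.19 CPM, log2 -3.44, adjusted p = 0.0377), and Igf2r, the receptor that clears it, was higher over the 6 pairs (log2 0.78, adjusted p = 0.013).

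Around Smad3, 4 of 13 other genes of the TGF-beta pathway were lower and 0 higher over the 6 pairs. The ligand genes Tgfb2 (log2 -1.81, edgeR adjusted p = 2.95e-05) and Tgfb3 (log2 -1.04, adjusted p = 0.0106), the inhibitor Skil (log2 -0.73, adjusted p = 0.00302) and Smad2 (log2 -0.43, adjusted p = 0.0464) were the 4. Of the receptors of Cxcl12, Ackr3 was lower (2.59 against 13.8 CPM over all samples, log2 -2.80, adjusted p = 0.00665).

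Of 9 other genes of ornithine and proline metabolism, 2 were higher and 1 lower over the 6 pairs: Sms, spermine synthase (log2 1.06, edgeR adjusted p = 0.000578), and the arginases Arg1 (log2 1.88, adjusted p = 0.00906) and Arg2 (log2 -1.89, adjusted p = 0.00251). In NPM against PM cells 0 of them were called. Of 9 other acyl-CoA thioesterases 1 was higher, Acot6 (0.653 against 0.214 CPM), and 2 lower, Acot1 (log2 -1.64, adjusted p = 0.0186) and Acot9 (log2 -0.71, adjusted p = 0.0251).

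**Figure D4:**
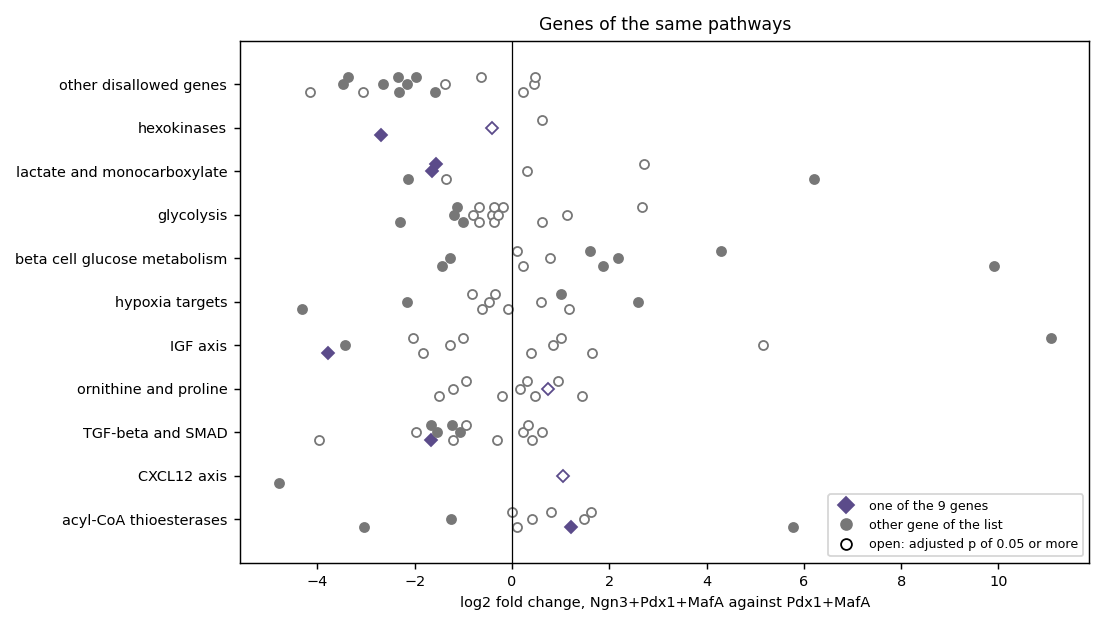
Log2 change between NPM and PM cells for every tested gene of the pathway lists, 1 line for each list. Diamonds are the 9 genes, circles the other genes of the list, and open symbols have an adjusted p of 0.05 or more. Of the other disallowed genes 8 were called lower and 0 higher, whereas of the genes of beta cell glucose metabolism 5 were called higher and 2 lower.

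The genes whose levels most resembled each of the 9 over the 32 samples were taken from 10174 genes, by Pearson's r of log2(CPM + 1). The samples share the factors they carry and their depth, so these values describe the pattern only. Ldha was closest to Tagln2 (r = 0.945), Eno1 (0.925) and Krt18 (0.924). Smad3 was closest to Gja1 (0.952) and Itgb4 (0.942), and Hk2 to Atp10b (0.928), Itgb4 (0.925) and Cd44 (0.925). Igfbp4 was closest to Ddah1 (0.927) and Slc16a1 to Bnip2 (0.864). The closest genes were less alike for Acot7 (Xpnpep2, 0.798), Hk1 (Ganab, 0.782), Oat (Swsap1, 0.754) and Cxcl12 (Ddc, 0.663).

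**Figure D5:**
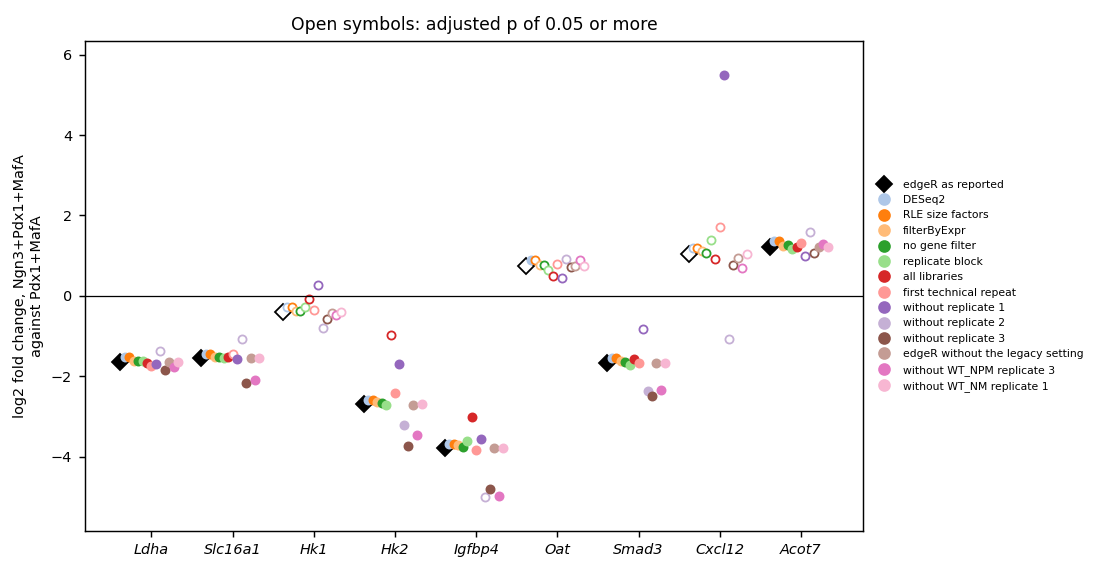
Log2 change of the 9 genes between NPM and PM cells under each way of processing the data, with diamonds for the values reported above and circles for the alternatives. Open symbols have an adjusted p of 0.05 or more. Ldha stayed between -1.84 and -1.36, Hk2 reached -0.98 with all libraries, and Cxcl12 ranged from -1.07 to 5.50 when replicates were left out.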

How the data were processed

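RNA of pools of 50 sorted cells was sequenced as 61 libraries (cells from mouse ductal organoids, 12 conditions). The authors aligned the reads with GSNAP, assigned them to genes of Ensembl release 81 with HTSeq (0.5.3p3) and deposited the raw, unnormalized counts of each library, which cover 46078 genes and 92 spike-in sequences. The HTSeq version is from the submitters' processing notes, and the strand setting of the counting is not given in the sources used here.

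Libraries had to have under 25% of counts on spike-ins, over 1000000 counts on genes and over 10000 detected genes, which kept 58 and left out 3 for depth (241563 to 9736403 counts per library before this step). Technical repeats were summed. A gene was tested where 5 or more libraries detected it and the variance of its log2(CPM + 1) exceeded 0.001 (24004 genes), with symbols and positions from GENCODE M21 on GRCm38. One model of all 12 conditions was fitted with edgeR 4.0.16 in R 4.3.3 (TMM scaling, trended dispersion, quasi-likelihood test, Benjamini-Hochberg adjustment over all genes, calls at an adjusted p under 0.05), tested on simulated data. A count of 0 in a sample allows up to 3 counts, a limit that covers counting error only. Alternatives were DESeq2 1.42.0, RLE scaling, edgeR's expression filter, no filter, the conditions compared only, a replicate block, all libraries, 1 technical repeat, and each replicate left out. The fit without edgeR's legacy setting and those without WT NPM replicate 3 or WT NM replicate 1 were chosen after seeing the data.

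The 9 genes and the lists were chosen with earlier results of these data known. Beyond the 9 genes, the text names paralogs of members, up to 4 genes with the lowest adjusted p over the 6 pairs from each pathway list, and the 3 genes most alike in level. Maf, Pfkl and Pdha1 were named after their values were seen. One gene of the lists is not reported here. The same replicate numbers occur in all conditions, where each number goes with a passage. Deviations from the group means of same-numbered samples correlated at over 0.1 in all 4 pairs of P with NP and all 5 of M with NM (0.283 to 0.746). They did so in 3 of 5 pairs of PM with NPM, all 3 of them WT (-0.387 to 0.335 over the 5). These correlations rest on groups of 2 or 3 samples and cannot decide whether the numbers pair the samples. Where Ngn3 was added to a single factor, the blocked value is given if it changed a call. With the block in all comparisons, 52 of 56 values of the 9 genes kept their direction and their side of the threshold. Of the rest, 2 gained the call and 2 changed sign.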

Additional observations from a re-analysis of the deposited data

Results flagged for a closer look

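Of 54 groups of 4 to 6 samples examined for a sample far from the rest, 7 held one. For values from a single normal distribution the rule flags about 1 in 20. Here it was applied to CPM without logs, in groups that mix WT and 6SA cultures and mostly passages, so that rate need not hold. In NPM cells, WT replicate 3 stood apart for Slc16a1 (58.8 CPM, the nearest other sample at 20.4), Hk2 (42.7 CPM, nearest 11.3), Igfbp4 (206 CPM, nearest 28.7) and Smad3 (209.6 CPM, nearest 63.1). In the same cells 6SA replicate 2 stood apart for Cxcl12 (22 CPM, nearest 3.86). In NP cells Hk2 was low in 6SA replicate 1 (18.5 CPM, nearest 53.6), and in PM cells Cxcl12 was high in WT replicate 1 (11.6 CPM, nearest 2.86).

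Some levels in the NPM pools left out for shallow depth were above those of every PM pool (here CPM without scaling between libraries). Hk1 was at 74.5 in the second pool of 6SA NPM replicate 2 and at 51.4 in the pool of 6SA NPM replicate 3, where the highest PM pool had 50.3. Hk2 was at 213 in the latter (highest PM pool 190.4), and Acot7 was at 219 and 186 in these pools (highest PM pool 127).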

How the results depend on the processing

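Of 732 re-estimated log2 differences of the 9 genes (56 values, each under up to 14 other settings), 649 kept their direction and their side of the threshold, 40 lost the call, 21 gained it and 22 changed sign. The cause was not tested in any of them. The count of the 9 genes called over the 6 pairs of conditions was 5, against 3 with all libraries and 4 to 5 with replicates left out in turn. For Ngn3 added to Pdx1 and MafA it was 6, against 2 to 6 with replicates left out (2 without replicate 2, which leaves 6SA NPM with 1 sample assumed to vary like the other conditions). In WT cells alone it was 1, against 2 with DESeq2, 3 with no gene filter, 2 without edgeR's legacy setting and 0 to 4 with replicates left out, and in 6SA cells 3, against 6, 7 (DESeq2 and no gene filter), 5 (only the conditions compared) and 0 to 3. The count for Ngn3 added to Pdx1 was 0 and remained 0 with replicates left out, and for Ngn3 added to MafA it was 0, against 1 with DESeq2, 3 with no gene filter, 1 without the legacy setting and 0 to 1. For 6SA against WT Ngn3 the count was 0, against 1 with no gene filter. The Ngn3 effect with both factors against that with Pdx1 gave 0, against 1 with no gene filter and 0 to 1, and against that with MafA it gave 0, against 1 with DESeq2, 4 with no gene filter and 0 to 3. MafA added gave 2, against 4 with DESeq2, 5 with no gene filter, 1 with the first technical repeat and 0 to 5, and Pdx1 added gave 4, against 2 with the first technical repeat and 0 to 5. With a replicate block the count became 2 in WT cells, 1 for Ngn3 added to Pdx1 and 1 for Ngn3 added to MafA (Ldha in both), and 4 for MafA added, while Acot7 for Ngn3 added to MafA (0.0047) and Slc16a1 in 6SA against WT (0.035) changed sign. In 6SA against WT, Slc16a1 with the first technical repeat (0.0049) and Hk2 with all libraries (0.45) also changed sign. With replicates left out in turn, the values that changed sign ranged, over the 6 pairs, from -0.62 to 0.24 for Slc16a1, from -0.53 to 0.27 for Hk1, from -0.50 to 2.25 for Hkdc1 and from -0.19 to 0.0022 for Bsg. For Ngn3 added to Pdx1 and MafA they ranged from -0.79 to 0.26 for Hk1, from -1.07 to 5.50 for Cxcl12, from -1.24 to 1.29 for Hkdc1 and from -0.065 to 0.50 for Bsg. For Ngn3 added to Pdx1 they ranged from -0.48 to 0.19 for Slc16a1, from -1.18 to 1.67 for Igfbp4 and from -1.58 to 4.35 for Cxcl12, and for Ngn3 added to MafA from -0.055 to 0.081 for Acot7 and from -0.077 to 0.020 for Smad3. In 6SA against WT they ranged from -0.32 to 0.29 for Slc16a1, from -0.25 to 0.50 for Acot7, from -0.32 to 0.79 for Oat, from -0.20 to 0.15 for Ldha and from -0.044 to 0.46 for Hk1. Cxcl12 over the 6 pairs, not called, was called under 5 settings, among them DESeq2 (adjusted p = 0.0269) and no replicate 1 (adjusted p = 0.000294), and its adjusted p reached 0.532 elsewhere. Among all genes, the calls over the 6 pairs fell from 5168 to 2085 without replicate 2, and those for Ngn3 added to Pdx1 and MafA from 4279 to 880. DESeq2 called 2481 against 1167 in WT cells, 2901 against 1390 in 6SA cells, 911 against 358 for Ngn3 added to Pdx1, 1928 against 1121 for Ngn3 added to MafA, 1344 against 451 for MafA added, 1935 against 654 for Pdx1 added and 26 against 0 for 6SA against WT. With no gene filter, 31181 genes were tested. Of these, 2157 were called in WT cells, 2463 in 6SA cells and 2077 for Ngn3 added to MafA. For MafA added 1454 were called, and for 6SA against WT 239. RLE size factors moved the median log2 difference of all genes from 0.05 to 0.17 for Ngn3 added to Pdx1 and MafA. Pools of 50 cells and 2 or 3 samples per condition limit the precision.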
